A study of Mus musculus with 185 samples.

Results

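The small leucine-rich proteoglycans are secreted proteins of the extracellular matrix, and 9 of them were followed here: Dcn (decorin), Bgn (biglycan), Aspn (asporin), Lum (lumican), Fmod (fibromodulin), Omd (osteomodulin), Prelp, Ogn (osteoglycin) and Podn (podocan). The 9 genes were chosen by name from the protein family, and all 9 were found among the 17171 genes of the authors' table. Their mRNAs were read in 185 single cells. Members of the family carry a band of leucine-rich repeats that binds fibrillar collagen, and most carry chondroitin, dermatan or keratan sulfate chains. They set the diameter and spacing of collagen fibrils, and several bind growth factors of the TGF-β family. In the heart they are products of the interstitial fibroblasts and belong to the matrix of the scar that follows infarction.

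The cells came from adult mice of approximately 5 months on a C57BL/6 background (backcross N=6). Cells bearing CD31 or CD45 were sorted away in order to remove endothelial and myeloid cells. The sorted cells were captured with the Fluidigm C1 system in 4 runs, called by the dates in the cell names Jul24, Jul29, Nov4 and Nov11. Lineage was read from eGFP: PostnMCM or Tcf21MCM knock-in alleles, which drive a tamoxifen-dependent Cre from the periostin or the Tcf21 locus, were combined with the R26-eGFP reporter and the mice were given tamoxifen. Activated cells came from the infarct region after myocardial infarction (MI), 7 days after MI for the Postn mice, and resident cells came from uninjured hearts. In the MI tracing that the paper describes, Postn mice received tamoxifen after MI and Tcf21 mice before it.

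There were 9 classes. The uninjured hearts gave 17 resident Tcf21-traced cells (Tcf21MCM, R26-eGFP), 12 resident Postn-negative cells, 3 resident Postn-positive Tcf21-positive cells and 1 resident Postn-positive cell, all in the Jul24 capture. The infarct gave 24 activated Postn-negative cells without eGFP and 27 activated Postn-traced cells with eGFP (PostnMCM, R26-eGFP), both in Jul29, and 44 activated Tcf21-traced cells in Nov4. A further 28 activated cells without eGFP held Postn mRNA and are called untraced Postn-positive (6 in Jul29, 19 in Nov4 and 3 in Nov11). The last class was 29 untraced activated cells from the scar, in Nov11. Jul29 also held the Postn-traced cells and Nov4 the Tcf21-traced cells, so the untraced Postn-positive class pools cells captured beside different tracers. The tracer allele behind the Nov11 cells is not given here. The Postn-negative and untraced Postn-positive classes were set in part by Postn mRNA itself, and the Cre alleles occupy 1 copy of the locus they report. Since the labels do not name the mouse behind a cell, a class stands as 1 sample: SDs are between cells, and no test was run. Levels are log2 (TPM+1), where TPM is scaled by transcript length and by the total of the cell, and a cell counted as positive above 5 TPM.

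The number of genes found per cell differed between the classes, and the deposited table does not say whether by depth of reading or by mRNA content. The median number of genes above 5 TPM was 2264 in resident Tcf21-traced, 2342 in activated Postn-negative, 3643 in Postn-traced and 3134 in activated Tcf21-traced cells. The scar class held 5 cells with fewer than 300 such genes (lowest 141). Fibroblast markers were present in nearly all cells: at least 3 of Col1a1, Col1a2, Col3a1, Pdgfra, Tcf21 and Ddr2 were above 5 TPM in 179 of 185 cells.

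The members lie in clusters, which the choice of genes did not use. On chromosome 10 Dcn (chr10:97479500-97518163) is followed by Lum (chr10:97565501-97572703) and then by the related genes Kera and Epyc, in GRCm38. On chromosome 13 Ecm2, Aspn (chr13:49544443-49567565), Omd (chr13:49582462-49592612) and Ogn (chr13:49608015-49624501) stand in a row on the plus strand. On chromosome 1 Prelp (chr1:133910304-133930102, minus strand) and Fmod (chr1:134037254-134048280, plus strand) are neighbours beside Optc, which is not listed in the table. Bgn on X and Podn on chromosome 4 have no member beside them. Levels were alike for some neighbours and not for others. Dcn and Lum were above 5 TPM in 185 of 185 and 177 of 185 cells. Aspn, Omd and Ogn were above 5 TPM in 162 of 185, 59 of 185 and 166 of 185 cells, although 14896 bases separate Aspn from Omd and 15402 separate Omd from Ogn. Kera and Epyc, the neighbours of Lum, were above 5 TPM in 1 and 4 cells, and Ecm2, the neighbour of Aspn, in 96 cells.

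Promoters of 7 members were matched by symbol in the RefSeq set for GRCm38.p6, the unmatched members being Dcn and Lum. The stretches before the start are shown for the chromosome 13 neighbours, of which Omd was in far fewer cells than Aspn and Ogn, and for Prelp, the member with the lowest difference between Postn-traced and Postn-negative cells, each 5′ to 3′ on the strand of its gene and without any base of an annotated exon. They are Aspn at chr13:49544193-49544442, Omd at chr13:49582212-49582461 and Ogn at chr13:49607765-49608014 on the plus strand, and Prelp at chr1:133921415-133921651 on the minus strand. The Prelp stretch lies inside the RefSeq span given above, just before position 133921414, where the GENCODE gene begins. Capitals mark matches on either strand to TATAAA (known as the TATA box), CANNTG (the E-box), GGGCGG (the GC box), GGAATG (a TEAD motif) or TGANTCA (an AP-1 motif).
Aspn: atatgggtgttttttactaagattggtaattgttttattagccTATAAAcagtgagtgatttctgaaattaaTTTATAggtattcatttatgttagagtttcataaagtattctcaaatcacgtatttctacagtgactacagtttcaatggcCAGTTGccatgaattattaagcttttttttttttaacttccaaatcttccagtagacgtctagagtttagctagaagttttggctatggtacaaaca
Omd: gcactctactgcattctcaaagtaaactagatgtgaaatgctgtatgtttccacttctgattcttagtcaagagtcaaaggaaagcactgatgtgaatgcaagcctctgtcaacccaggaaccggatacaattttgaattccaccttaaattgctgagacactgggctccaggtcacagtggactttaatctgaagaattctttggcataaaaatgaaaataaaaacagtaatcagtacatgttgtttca
Ogn: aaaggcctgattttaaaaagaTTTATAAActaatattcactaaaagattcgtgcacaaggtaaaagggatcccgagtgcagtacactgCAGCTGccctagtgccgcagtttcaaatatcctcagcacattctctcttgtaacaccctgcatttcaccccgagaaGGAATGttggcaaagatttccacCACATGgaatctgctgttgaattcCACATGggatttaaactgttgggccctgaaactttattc
Prelp: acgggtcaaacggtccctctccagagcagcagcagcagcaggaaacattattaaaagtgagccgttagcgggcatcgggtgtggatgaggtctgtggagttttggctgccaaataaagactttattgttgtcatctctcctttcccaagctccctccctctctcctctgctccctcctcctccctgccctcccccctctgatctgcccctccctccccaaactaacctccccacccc
TATAAA was found in Aspn and Ogn, CANNTG in Aspn and Ogn, and GGAATG in Ogn, while the Omd and Prelp stretches held none of the 5. Of the members not shown, Bgn held CANNTG and GGGCGG, Fmod held CANNTG, and Podn, with 114 bases left after exons, held GGGCGG. In the 250 bases before the start of 27025 genes, TATAAA was found in 13%, CANNTG in 66%, GGGCGG in 32.9%, GGAATG in 12.6% and TGANTCA in 6.87%. In Ogn the 2 matches to TATAAA, 1 on each strand, overlap. The bases G and C made up 30% of the Aspn stretch, 38.4% of Omd, 42% of Ogn and 56.5% of Prelp, beside a median of 52% over all genes. These matches describe letters only, and binding was not measured.

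Decorin, a class I member whose core protein carries 1 chondroitin or dermatan sulfate chain, was the most abundant of the family. Its mRNA was above 5 TPM in 185 of 185 cells, and it was the highest member in 162 of them. In 42 cells no gene of the whole table had a higher TPM than Dcn, and in 135 cells it stood among the 10 highest genes. Dcn is thus a mark of nearly every cell of the set, resident or activated, and the classes differ in how much of it they hold rather than in whether they hold it. Its level was 14.02 ± 0.42 (lowest 12.82, median 14.09, highest 14.61, n = 17) in resident Tcf21-traced cells and 13.77 ± 1.09 (lowest 10.75, median 14.21, highest 14.70, n = 12) in resident Postn-negative cells. In the infarct it was 13.85 ± 0.60 (lowest 12.02, median 13.97, highest 14.58, n = 24) in Postn-negative, 13 ± 0.77 (lowest 11.21, median 13.15, highest 14.35, n = 27) in Postn-traced and 12.87 ± 1.26 (lowest 8.02, median 13.12, highest 14.49, n = 44) in Tcf21-traced cells. The untraced Postn-positive cells had 12.11 ± 2.39 (lowest 4.06, median 12.90, highest 14.46, n = 28) and the scar cells 13.11 ± 1.27 (lowest 7.80, median 13.38, highest 14.78, n = 29). The order of the class means ran from the 3 resident Postn-positive Tcf21-positive cells (14.24) through resident Tcf21-traced and activated Postn-negative cells down to the untraced Postn-positive cells, and no step between neighbours in that order exceeded the larger SD of the pair.

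Biglycan, the class I relative of decorin with 2 chain sites, was above 5 TPM in 183 of 185 (98.9%, interval 96.1 to 99.9%) of the cells, with an exact 95% interval for counting error. It was 11.21 ± 1.51 (lowest 6.64, median 11.77, highest 12.63, n = 17) in resident Tcf21-traced and 10.89 ± 2.60 (lowest 3.26, median 11.65, highest 12.97, n = 12) in resident Postn-negative cells. Among activated cells it was lowest in the Postn-negative class, at 10.39 ± 2.35 (lowest 1.12, median 10.93, highest 12.36, n = 24). It was 11.90 ± 0.88 (lowest 8.47, median 12.03, highest 12.97, n = 27) in Postn-traced and 11.77 ± 0.64 (lowest 9.39, median 11.84, highest 12.78, n = 44) in Tcf21-traced cells. These 2 traced infarct classes were also the narrower ones, with SDs of 0.88 and 0.64 against 2.35 in Postn-negative cells. The untraced Postn-positive cells had 11.37 ± 1.01 (lowest 7.48, median 11.55, highest 12.51, n = 28) and the scar cells 11.33 ± 2.46 (lowest 0, median 11.64, highest 14.36, n = 29), where the 1 cell listed at 0 was 1 of the 5 cells with fewer than 300 genes.

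Asporin, a class I member without a chain site that binds collagen and TGF-β1, was the member with the largest difference when either traced infarct class was set against resident Tcf21-traced cells. It was above 5 TPM in 8 of 17 (47.1%, interval 23 to 72.2%) among resident Tcf21-traced cells and 8 of 12 (66.7%, interval 34.9 to 90.1%) among resident Postn-negative cells. In the infarct the counts were 22 of 24 (91.7%, interval 73 to 99%) for Postn-negative, 27 of 27 for Postn-traced and 43 of 44 (97.7%, interval 88 to 99.9%) for Tcf21-traced cells. The resident cells fell into cells with little or no Aspn and cells with levels near those of the infarct, which the mean alone hides. Resident Tcf21-traced cells had 4.84 ± 4.38 (lowest 0, median 1.61, highest 11.16, n = 17), and resident Postn-negative cells had 6.64 ± 3.91 (lowest 0, median 7.77, highest 10.78, n = 12). Activated Postn-negative cells had 7.99 ± 3.51 (lowest 0, median 9.50, highest 11.87, n = 24), Postn-traced cells 10.50 ± 1.97 (lowest 5.36, median 10.91, highest 13.15, n = 27) and Tcf21-traced cells 9.83 ± 1.94 (lowest 1.02, median 10.24, highest 12.66, n = 44). The untraced Postn-positive cells had 9.22 ± 2.81 (lowest 0, median 10.02, highest 12.16, n = 28) and the scar cells 7.70 ± 4.54 (lowest 0, median 10.25, highest 12.42, n = 29). The 4 resident cells with Postn mRNA were all positive for Aspn, at 7.44, 9.39 and 9.92 in the 3 Tcf21-positive cells and 11.54 in the single other cell, which gave it the first place in the order of class means. Resident Tcf21-traced cells had the last place, and no step between neighbours exceeded the larger SD of the pair. The single resident Postn-positive cell also had 2856 TPM summed over 6 tendon or cartilage markers, led by Sox9 (2070). That sum averaged 96.1 in resident Tcf21-traced and 136 in resident Postn-negative cells. In the single cell only 2 of the 6 markers, Sox9 and Comp, were above 5 TPM, and Scx, Tnmd, Mkx and Acan were listed at 0. Sox9 was above 5 TPM in 77.3% of all cells of the set, so the sum alone does not give this cell a tendon or cartilage identity.

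Lumican leads the class II members, most of which carry keratan sulfate and bind collagen at the surface of the fibril. It was above 5 TPM in 177 of 185 (95.7%, interval 91.7 to 98.1%) of the cells and followed Dcn and Bgn in mean level. Resident Tcf21-traced cells had 11.72 ± 2.19 (lowest 4.23, median 12.16, highest 13.43, n = 17) and activated Postn-negative cells 11.48 ± 1.28 (lowest 8.57, median 11.73, highest 13.76, n = 24). Postn-traced cells had 11.38 ± 1.36 (lowest 6.75, median 11.82, highest 12.82, n = 27) and activated Tcf21-traced cells 10.77 ± 1.77 (lowest 3.29, median 11.13, highest 13, n = 44). The medians of Lum in these 4 classes lay within about 1 log2 unit of each other, and 3 other classes had a longer low tail. That tail was seen in resident Postn-negative cells at 11.14 ± 3.14 (lowest 2.32, median 11.96, highest 13.70, n = 12), in untraced Postn-positive cells at 9.38 ± 3.31 (lowest 0, median 10.60, highest 12.84, n = 28) and in scar cells at 9.36 ± 4.60 (lowest 0, median 11.78, highest 13.06, n = 29). The scar values of Lum, Prelp and Ogn include the 5 cells with fewer than 300 genes above 5 TPM, which were not set apart here.

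Prelp, a class II member that binds heparan sulfate chains and collagen, was above 5 TPM in 153 of 185 (82.7%, interval 76.5 to 87.9%) of the cells. It was 7.20 ± 2.34 (lowest 2.14, median 6.94, highest 10.55, n = 17) in resident Tcf21-traced and 8.43 ± 2.60 (lowest 1.16, median 9.38, highest 10.70, n = 12) in resident Postn-negative cells. Within the infarct it was 7.85 ± 3.19 (lowest 0.85, median 8.95, highest 11.29, n = 24) in Postn-negative, 4.77 ± 3.41 (lowest 0, median 4.50, highest 10.39, n = 27) in Postn-traced and 7.25 ± 2.29 (lowest 0, median 7.72, highest 10.14, n = 44) in Tcf21-traced cells. Postn-traced cells were therefore the large class with the least Prelp, and 4 of the 27 were listed at 0. The untraced Postn-positive cells had 6.22 ± 2.97 (lowest 0, median 6.61, highest 10.20, n = 28) and the scar cells 4.95 ± 4.17 (lowest 0, median 5.83, highest 11.23, n = 29), and 10 scar cells were listed at 0.

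Fibromodulin and osteomodulin, the remaining class II members, were found in a minority of cells. Fmod, which binds collagen at a site shared with lumican, was above 5 TPM in 18 of 185 (9.73%, interval 5.87 to 14.9%) of the cells and listed at 0 in 155. It therefore missed the 10% of cells asked of a tested gene, which the other 8 members passed. The positive cells were 7 of 27 Postn-traced cells, 4 of 29 scar cells, 3 of 28 untraced Postn-positive cells, 2 of 44 activated Tcf21-traced cells, 1 of 12 resident Postn-negative cells and the single resident Postn-positive cell, at 9.39. No activated Postn-negative cell (0 of 24) and no resident Tcf21-traced cell (0 of 17) was positive. Where it was present Fmod reached high levels, up to 10.38 in Postn-traced and 9.16 in scar cells, so its class means describe few cells. Omd, an acidic member best known from bone, was above 5 TPM in 59 of 185 (31.9%, interval 25.2 to 39.1%) of the cells, and among the classes with more than 5 cells from 7 of 28 untraced Postn-positive to 8 of 17 resident Tcf21-traced cells. Its class means ran from 1.20 ± 1.89 in untraced Postn-positive cells to 2.84 ± 2.76 in resident Tcf21-traced cells among the same classes. Omd depended on the minimum more than any other member: it was over 0 in 97.3% of the cells and above 1 TPM in 43.2%. Values of Omd between 0 and 1 TPM are not taken here as presence of its mRNA.

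Osteoglycin, a class III member that carries keratan sulfate in some tissues, was above 5 TPM in 166 of 185 (89.7%, interval 84.4 to 93.7%) of the cells. In the resident classes, with overlapping ranges, it was 9.31 ± 2.18 (lowest 4.75, median 9.75, highest 12.39, n = 17) in Tcf21-traced and 7.07 ± 2.38 (lowest 2, median 7.53, highest 10.22, n = 12) in Postn-negative cells. In the Jul29 capture it was 9.40 ± 1.77 (lowest 5.34, median 9.29, highest 12.35, n = 24) in activated Postn-negative and 9.73 ± 2.05 (lowest 1.48, median 10.03, highest 12.08, n = 27) in Postn-traced cells. The Nov4 and Nov11 classes lay lower and spread wider. They had 7.27 ± 3.06 (lowest 0, median 8.21, highest 11.48, n = 44) in activated Tcf21-traced and 5.83 ± 4.43 (lowest 0, median 7.94, highest 11.24, n = 29) in scar cells. The untraced Postn-positive class was cut across captures, and its Ogn median was 11.22 in 6 Jul29 cells, 7.81 in 19 Nov4 cells and 3.38 in 3 Nov11 cells. Inside this class too Ogn was lower in Nov4 and Nov11 than in Jul29, on few cells in 2 of the 3 captures. Jul29 held the Postn-traced cells and Nov4 the Tcf21-traced cells, so capture and tracer cannot be told apart here. Podocan, a class V member known from smooth muscle, was above 5 TPM in 33 of 185 (17.8%, interval 12.6 to 24.1%) of the cells and its median was 0 in every class with more than 5 cells. Among those classes its share ran from 6 of 44 activated Tcf21-traced cells to 5 of 17 resident Tcf21-traced cells.

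**Figure D1:**
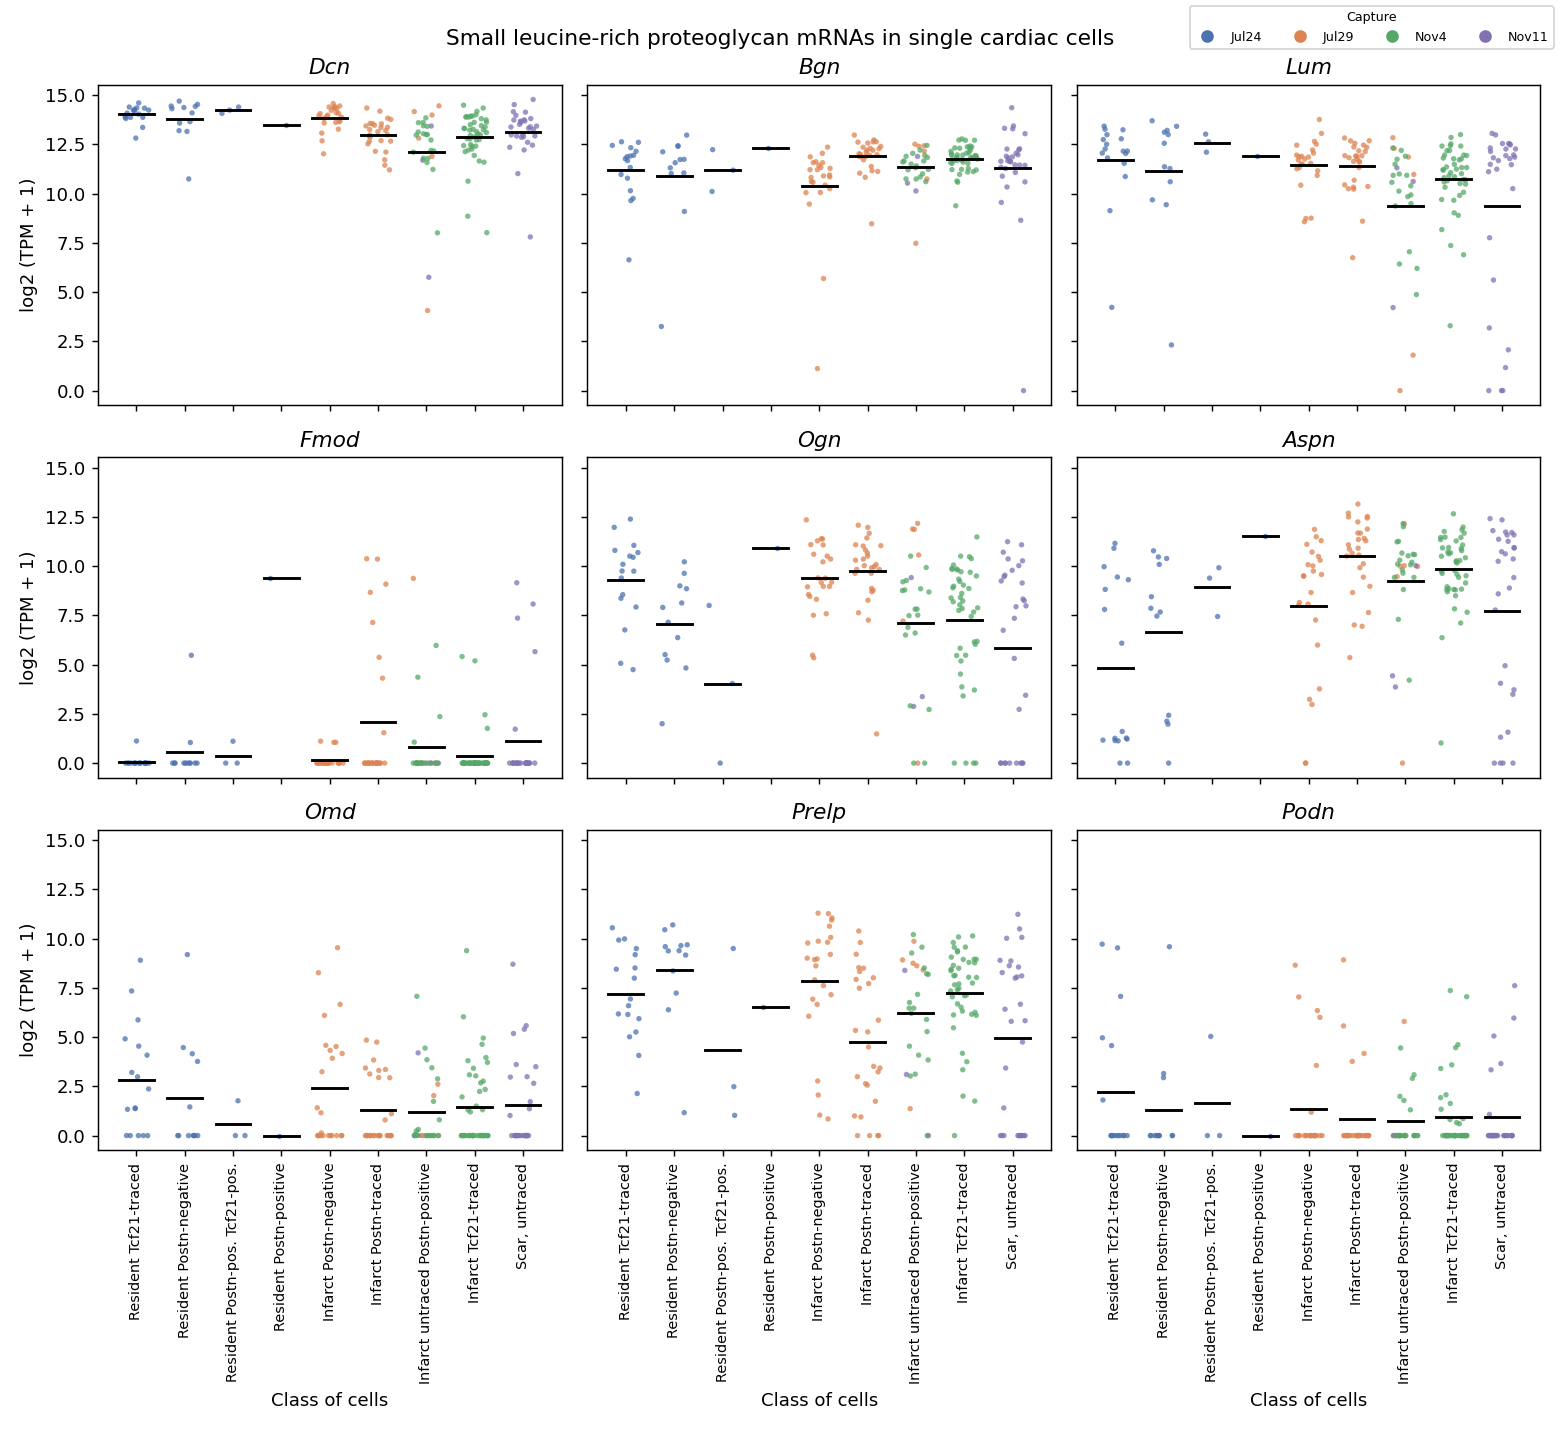
Levels of the 9 members in each of 185 cells, as log2 (TPM+1). Each dot is 1 cell, coloured by capture, and the bar is the class mean. Dcn, Bgn and Lum lay high in nearly all cells, Aspn, Ogn and Prelp spread from 0 to high levels, and Fmod, Omd and Podn were at or near 0 in most cells.

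**Figure D2:**
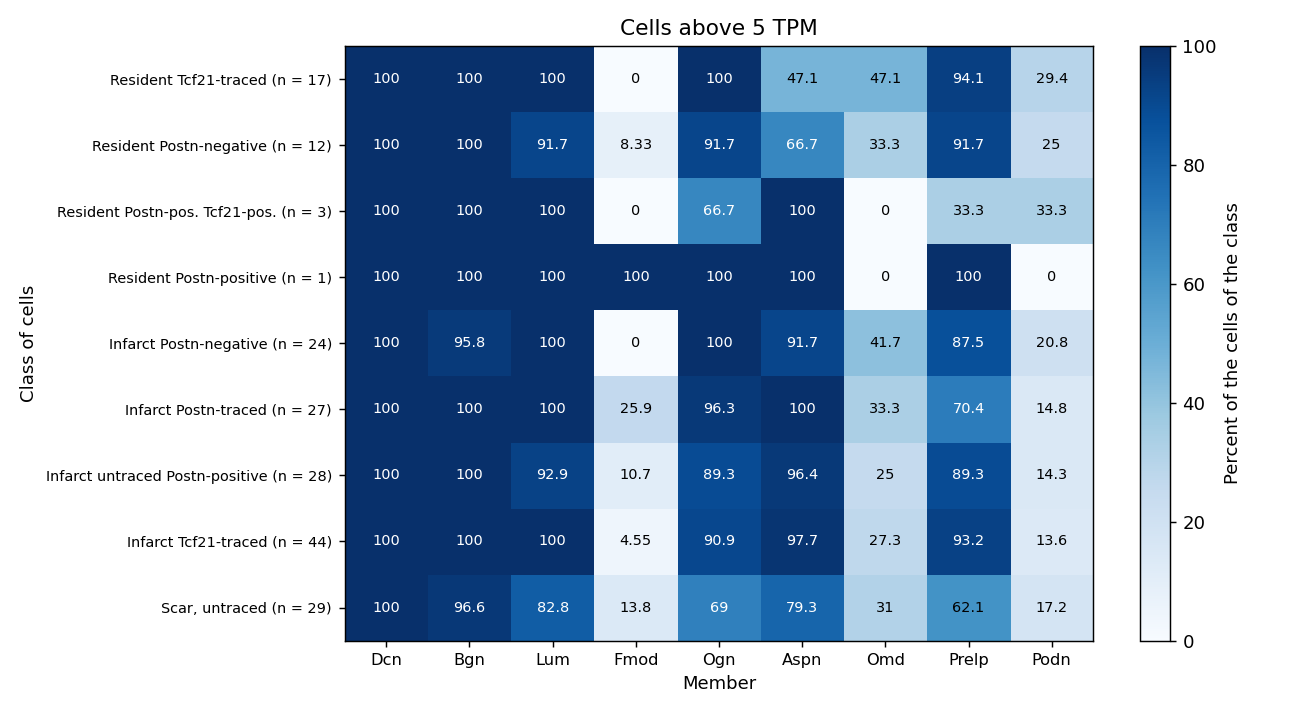
Percent of the cells of each class above 5 TPM for each member. Dcn and Bgn are near 100 in all classes, Lum is lowest in the scar, Aspn is lowest in the 2 larger resident classes, and Fmod stays under 30 in every class with more than 1 cell.

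Within the Jul29 capture, Postn-traced cells were set against Postn-negative cells. Of the 9 members, 3 (Aspn, Fmod and Bgn) were more than 1 log2 unit higher in Postn-traced cells, where 31.9% of all 7843 tested genes were. Fmod missed the filter of the tested genes and is counted with the members here and below, and without it 2 of 8 were higher. In the other direction 2 members (Prelp and Omd) were more than 1 log2 unit lower, where 4.42% of all genes were. The median difference was −0.10 over the members and 0.58 over all genes. The genes as a whole were thus shifted up in Postn-traced cells, which held more genes above 5 TPM, and the members were spread on both sides of 0, with 6 of 9 below the median of all genes. The differences were 2.51 for Aspn, 1.97 for Fmod and 1.51 for Bgn against −3.08 for Prelp, −1.14 for Omd and −0.86 for Dcn. Dcn was the member whose difference exceeded the SD of both classes, and 25 of 27 Postn-traced cells lay below the Postn-negative median. With each cell centred on its median gene Dcn differed by −0.33, less than either of these SDs. Ogn differed by 0.34, Podn by −0.54 and Lum by −0.10, and Lum turned to 0.43 with that centring and to 0.09 with medians over cells. That centring moved the median of all genes by 0.52. The ranges of the 2 classes overlapped for every member. In cells of 2000 to 4000 genes alone (21 and 21 cells) the differences were 2.14 for Aspn, 1.61 for Bgn, −0.89 for Dcn and −3.21 for Prelp.

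Within the Nov4 capture, activated Tcf21-traced cells were set against the 19 untraced Postn-positive cells. Of the members 1 (Prelp) was more than 1 log2 unit higher in Tcf21-traced cells, beside 6.59% of all genes, and 0 were lower by that much, beside 9.14%. The median was 0.30 over the members and −0.04 over all genes. Prelp was 7.25 ± 2.29 and 6.15 ± 2.62 (lowest 0, median 6.47, highest 10.20, n = 19), a difference of 1.10, followed by Lum at 0.93, Dcn at 0.41, Ogn at 0.41 and Bgn at 0.30. None of the 9 exceeded the SD of both classes, which with spreads this wide does not show that the classes were alike. Aspn (−0.08), Omd (0.13), Podn (0.10) and Fmod (−0.39) were near 0, and with each cell centred on its median gene, which moved the median of all genes by −0.26, Omd turned to −0.13 and Podn to −0.16. Aspn turned to 0.30 in cells of 2000 to 4000 genes.

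Between uninjured and infarcted hearts the Tcf21-traced cells can be compared, but the 2 classes came from different captures (Jul24 and Nov4), so injury and capture cannot be told apart. Of the members 1 (Aspn) was more than 1 log2 unit higher in the infarct, beside 33.4% of all genes, and 4 (Ogn, Omd, Podn and Dcn) were lower by that much, beside 4.72%. The median was −0.95 over the members and 0.62 over all genes, and 8 of 9 members lay below the median of all genes. The differences were 4.99 for Aspn, −2.04 for Ogn, −1.40 for Omd, −1.30 for Podn and −1.15 for Dcn. Aspn exceeded the SD of both classes, and 43 of 44 infarct cells lay above the resident median. Lum was lower by a smaller amount (−0.95), while Bgn (0.56), Fmod (0.27) and Prelp (0.05) were at or above 0. Prelp was −0.26 with the mean of linear TPM. Centring each cell moved the median of all genes by 0.45 and left the sign of each of the 9 differences as it was, with Dcn at −0.70 and Aspn at 5.44. Aspn depended on the average: it differed by 1.81 with the mean of linear TPM and by 8.64 with medians over cells.

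Postn-traced cells set against the same 17 resident Tcf21-traced cells share that class with the comparison above, and again injury and capture (Jul29 and Jul24) cannot be told apart. Of the members 2 (Aspn and Fmod) were more than 1 log2 unit higher, beside 38.1% of all genes, and 4 (Prelp, Omd, Podn and Dcn) were lower by that much, beside 4.51%. The median was −0.34 over the members and 0.71 over all genes. The differences were 5.66 for Aspn, 2.04 for Fmod and 0.69 for Bgn, against −2.42 for Prelp, −1.57 for Omd, −1.38 for Podn and −1.02 for Dcn. Aspn and Dcn exceeded the SD of both classes: all 27 Postn-traced cells lay above the resident median of Aspn, and 25 lay below that of Dcn. With each cell centred on its median gene Dcn differed by −0.53, less than the SD of Postn-traced cells given above. Ogn differed by 0.42 and Lum by −0.34, and Lum turned to 0.16 under the same centring, which moved the median of all genes by 0.50.

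Infarct cells without Postn (Jul29) set against resident cells without Postn (Jul24) showed a different list, and again injury and capture cannot be told apart. Of the members 2 (Ogn and Aspn) were more than 1 log2 unit higher, beside 19.9% of all genes, and 0 were lower by that much, beside 9.09%. Among the 12 resident cells, 1 had 2 members above 5 TPM, a summed share of 0.174% and the lowest Bgn and Prelp of its class. Without that cell the resident means of Bgn and Prelp would be higher, so the count of 0 leans on 1 cell. It was also the lowest in Dcn and Lum, so the small positive differences of these 2 members lean on it too. The comparison was not repeated without that cell. The median was 0.09 over the members and 0.25 over all genes. Ogn differed by 2.33 and Aspn by 1.35, neither beyond the SD of both classes, and Aspn was 0.07 in cells of 2000 to 4000 genes. Dcn (0.09), Lum (0.34) and Podn (0.06) were just above 0 and turned to −0.02, −0.22 and −0.52 in those cells, while Bgn (−0.50), Prelp (−0.58) and Fmod (−0.41) were below 0. With the mean of linear TPM, Dcn was −0.06, Lum −0.50, Podn −1.16 and Prelp 0.17. Omd differed by 0.50.

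The 2 traced infarct classes, Tcf21-traced (Nov4) and Postn-traced (Jul29), differed mainly in Prelp and Ogn, and here tracing and capture cannot be told apart. Of the members 1 (Prelp) was more than 1 log2 unit higher in Tcf21-traced cells, beside 6.73% of all genes, and 2 (Ogn and Fmod) were lower by that much, beside 11.4%. The differences were 2.47 for Prelp, −2.47 for Ogn and −1.77 for Fmod, with a median of −0.13 over the members and −0.09 over all genes. Dcn (−0.13) and Bgn (−0.13) were nearly alike in the 2 classes, and Aspn differed by −0.67 and Lum by −0.62. Omd (0.16) and Podn (0.09) were near 0, with Podn at −0.04 under a pseudocount of 5 and at −1.20 with the mean of linear TPM, where Dcn was 0.04.

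Within the uninjured capture, resident Tcf21-traced cells were set against resident Postn-negative cells. Of the members 1 (Ogn) was more than 1 log2 unit higher in Tcf21-traced cells, beside 16.5% of all genes, and 2 (Aspn and Prelp) were lower by that much, beside 11.8%. The differences were 2.24 for Ogn, −1.80 for Aspn and −1.23 for Prelp, and the median was 0.32 over the members and 0.14 over all genes. None of the 9 exceeded the SD of both classes. Omd (0.92), Podn (0.91) and Lum (0.58) leaned to the Tcf21-traced cells, as did Bgn (0.32) and Dcn (0.25), although in cells of 2000 to 4000 genes Bgn turned to −0.32 and Lum to −0.19. With the mean of linear TPM, Bgn was −0.05, Lum −0.03 and Omd −0.19, and Dcn was −0.12 with medians over cells. Of the 12 resident Postn-negative cells, 1 had 2 members above 5 TPM and a summed share of 0.174%. It had the lowest Dcn, Bgn and Lum of its class and pulls those means down. The lean of these 3 members to the Tcf21-traced cells therefore rests on that 1 cell. So does the member median of 0.32, which is the Bgn difference. The differences were not taken again without it. Fmod differed by −0.48. A comparison of infarct cells thus starts from another mean of Ogn and Aspn with each resident class, within the spread of the cells.

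**Figure D3:**
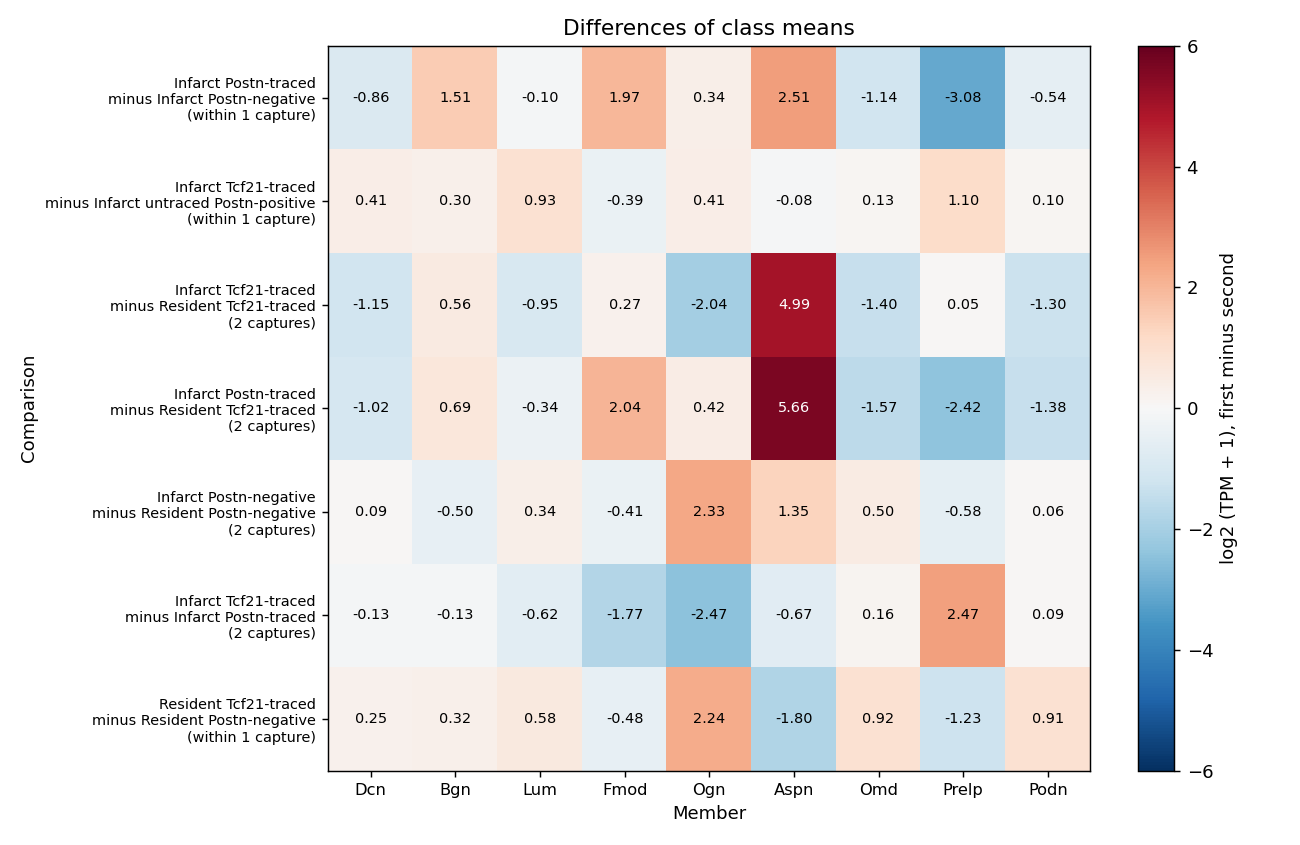
Differences of class means for the 9 members in 7 comparisons, as log2 (TPM+1), first class minus second. Comparisons that use 2 captures are marked. Aspn has the 2 darkest cells, where traced infarct cells are set against resident Tcf21-traced cells, and Prelp and Ogn change sign between comparisons.

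Decorin and biglycan can be set against each other inside each cell, where any scaling of the cell cancels. Dcn minus Bgn was 2.81 ± 1.55 (lowest 1.03, median 2.30, highest 7.23, n = 17) in resident Tcf21-traced and 2.88 ± 1.79 (lowest 1.03, median 2.21, highest 7.49, n = 12) in resident Postn-negative cells. In activated Postn-negative cells it was 3.09 ± 1.31 (lowest 1.17, median 2.88, highest 7.93, n = 23). These 3 classes thus had like means in favour of Dcn, and 0 of their cells had more Bgn than Dcn. In Postn-traced cells the difference was 1.10 ± 0.84 (lowest −0.86, median 1.08, highest 2.74, n = 27) and in activated Tcf21-traced cells 1.10 ± 1.55 (lowest −4.31, median 1.28, highest 4.36, n = 44). The untraced Postn-positive cells had 0.74 ± 2.26 (lowest −6.68, median 1.26, highest 4.41, n = 28) and the scar cells 1.32 ± 1.47 (lowest −2.53, median 1.72, highest 3.57, n = 28). Bgn exceeded Dcn in 1 of 27 Postn-traced, 6 of 44 activated Tcf21-traced, 6 of 28 untraced Postn-positive and 4 of 28 scar cells. The gap between Postn-negative and Postn-traced cells, within 1 capture, exceeded the SD of both classes, and in cells of 2000 to 4000 genes the means were 3.21 and 1.14.

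The make-up of the family followed the same line. Dcn made up 61.4 ± 8.38% of the summed TPM of the 9 members in resident Tcf21-traced cells and 65.2 ± 11.8% in activated Postn-negative cells, but 42.9 ± 10.6% in Postn-traced and 48.9 ± 16.6% in activated Tcf21-traced cells. Bgn made up 11.7 ± 6.71% and 8.68 ± 4.63% in the first 2 of these classes and 20.7 ± 7.11% and 24.5 ± 16.3% in the last 2. Aspn made up 2.05 ± 4.01% in resident Tcf21-traced, 3.63 ± 3.91% in Postn-negative and 12.9 ± 12.8% in Postn-traced cells, and in 3 of 27 Postn-traced cells Aspn was the highest member of all. The share of Lum ran from 11% in untraced Postn-positive to 17.8% in resident Tcf21-traced cells among the classes with more than 5 cells. Between Postn-negative and Postn-traced cells the family thus moved from mostly Dcn to a mix in which Bgn and Aspn together held a larger share.

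The family as a whole was a sizeable share of the mRNA of a cell. Summed over the 9 members it was 2.81 ± 0.576% (lowest 1.35, median 2.8, highest 3.65) of the TPM of a resident Tcf21-traced cell and 2.7 ± 1.2% (lowest 0.174, median 2.85, highest 4.06) of a resident Postn-negative cell. In the infarct it was 2.48 ± 0.867% (lowest 0.85, median 2.54, highest 4.41) in Postn-negative, 2.15 ± 0.784% (lowest 0.668, median 2.19, highest 3.74) in Postn-traced and 1.83 ± 0.653% (lowest 0.554, median 1.78, highest 3.12) in Tcf21-traced cells. It was lowest in the untraced Postn-positive class at 1.53 ± 0.903% (lowest 0.122, median 1.49, highest 3.85), and 2.11 ± 0.903% (lowest 0.375, median 2.16, highest 3.74) in the scar. By capture the untraced Postn-positive mean was 2.25% in 6 Jul29, 1.40% in 19 Nov4 and 0.90% in 3 Nov11 cells. In Jul29 it was thus not below the 2.15% of Postn-traced cells. In cells of 2000 to 4000 genes alone the means were 2.96% in resident Tcf21-traced, 2.93% in resident Postn-negative, 2.65% in activated Postn-negative, 2.28% in Postn-traced, 1.95% in activated Tcf21-traced, 1.85% in untraced Postn-positive and 2.07% in scar cells. The number of members above 5 TPM in a cell had a median of 6 to 6.5 in each class with more than 5 cells, from 2 to 9 over all cells, and 1 untraced Postn-positive cell of the Nov4 capture held all 9.

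**Figure D4:**
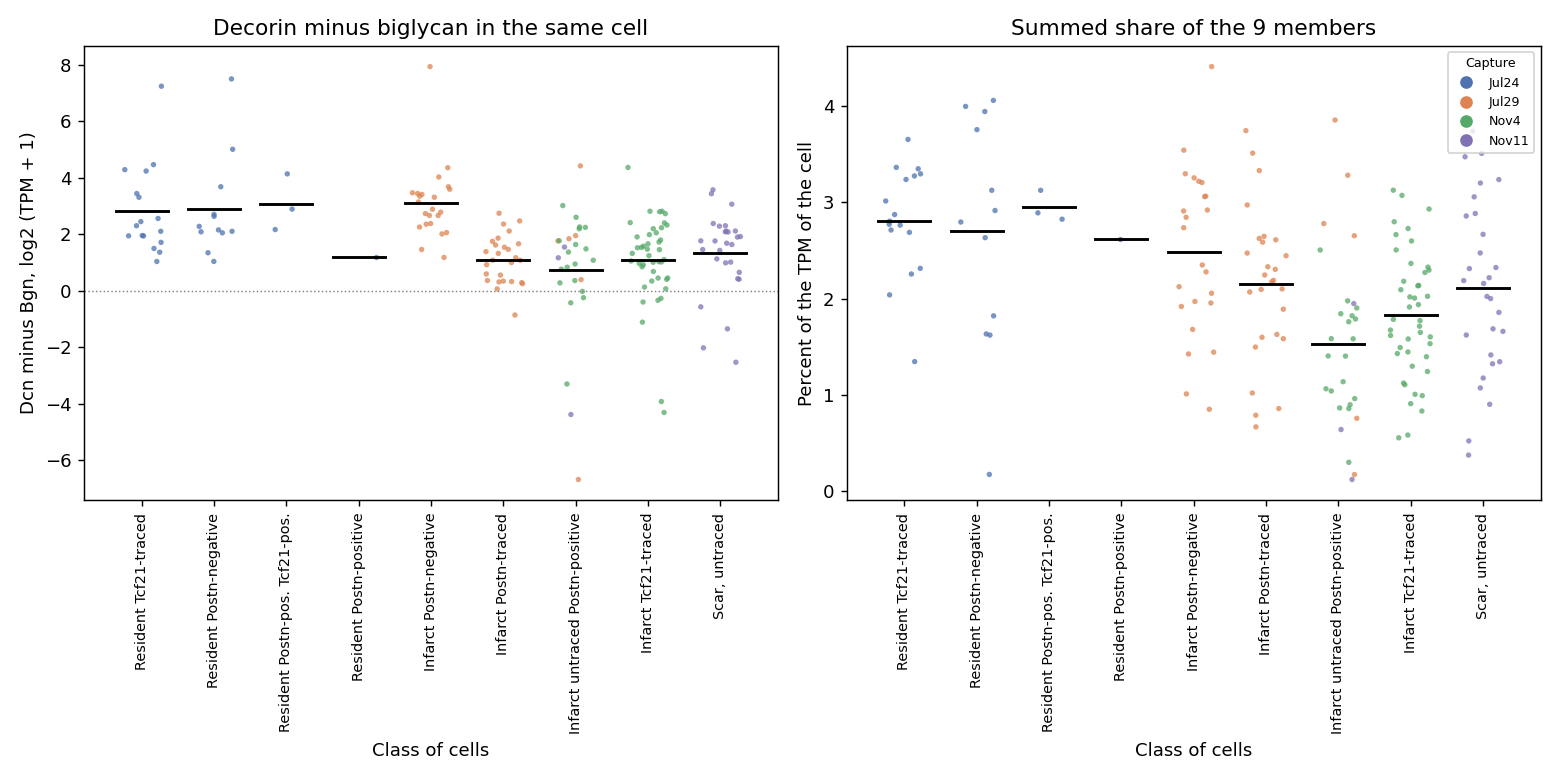
Dcn minus Bgn in the same cell (left, cells with both above 5 TPM) and summed share of the 9 members in the TPM of the cell (right), by class. Bars are class means. On the left the resident classes of more than 1 cell and the activated Postn-negative class lie above the other infarct classes, and cells under the dotted line hold more Bgn than Dcn.

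Across cells within a class and capture, the members were tied to each other to unlike degrees. For this each value was taken as its deviation from the mean of its class in its capture, and correlations (r, Pearson) were taken over all 185 cells, as a description. Dcn and Lum, neighbours on chromosome 10, had the highest of the 36 pairs, r = 0.54, and r was 0.73, 0.75, 0.52 and 0.44 in the Jul24, Jul29, Nov4 and Nov11 captures. Dcn and Prelp followed at 0.41 (0.44, 0.45, 0.41 and 0.37 in the captures), then Lum and Ogn at 0.39, Ogn and Prelp at 0.37 and Lum and Prelp at 0.31. Dcn and Ogn had r = 0.26 (0.26, 0.67, 0.21 and 0.01 in the captures). Lum and Ogn (0.01, 0.53, 0.38 and 0.46) and Lum and Prelp (0.31, 0.30, −0.05 and 0.52) were likewise near 0 in 1 capture each. The Jul29 values include 1 untraced Postn-positive cell with Dcn at 4.06 and both Lum and Ogn at 0. They were not taken without it. Bgn had r = 0.12 to Dcn (0.63, 0.24, −0.18 and −0.03 in the captures). The Jul24 values of Dcn with Bgn and with Lum include 1 resident Postn-negative cell with 2 members above 5 TPM. That cell was the lowest of its class in Dcn, Bgn and Lum, and r was not taken without it. Aspn had r = 0.27 with Ogn, 0.27 with Prelp and 0.26 with Dcn. The median over the 36 pairs was 0.13, with 29 pairs above 0 and 5 above 0.3, and pairs with Fmod, Omd or Podn rest on few positive cells.

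Beside the markers of the 2 lineages, the members split again. Aspn and Ogn varied with Postn (r = 0.29 and 0.28), but not in every capture (−0.25, 0.10, 0.48 and 0.49 for Aspn and 0.13, 0.00, 0.43 and 0.25 for Ogn in the captures). Dcn varied against Col1a1 (r = −0.26, and 0.48, −0.23, −0.27 and −0.48 in the captures) and against Acta2 (r = −0.23, and −0.28, −0.11, −0.48 and 0.07), and with Tcf21 (r = 0.32, and 0.17, 0.37, 0.32 and 0.38). Lum varied with Pdgfra (r = 0.37, 0.47, 0.49, 0.31 and 0.31 in the captures) and Prelp with Tcf21 (r = 0.30, and −0.11, 0.44, 0.22 and 0.53 in the captures). The number of genes above 5 TPM had r = 0.02 with Dcn, 0.12 with Bgn, 0.02 with Aspn, 0.24 with Lum, 0.24 with Ogn and 0.10 with Prelp. By capture it was 0.13, 0.07, −0.31 and 0.31 for Dcn and 0.26, −0.22, −0.33 and 0.65 for Prelp, so the pooled values hide opposite signs. All values of a cell share 1 library and its total of TPM.

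Over the pooled cells, being neighbours on a chromosome went with a high correlation for Dcn and Lum alone. The other neighbour pairs had r = 0.27 for Aspn and Ogn, 0.15 for Aspn and Omd, 0.09 for Omd and Ogn and 0.04 for Prelp and Fmod. By capture Aspn and Ogn had 0.03 in Jul24, 0.35 in Jul29, 0.48 in Nov4 and 0.24 in Nov11. The median over the 5 neighbour pairs was 0.15 and over the 31 other pairs 0.13 but 3 of the 5 contain Omd or Fmod, which rest on few positive cells. Among 4028 genes above 5 TPM in at least 25% of cells, the 3 with the highest r to Dcn were Lum (0.54), Sparcl1 (0.52) and Sept2 (0.51). For Lum they were Dcn (0.54), Sdc2 (0.51) and Pcolce (0.50). For Aspn they were Fstl1 (0.50), Col8a1 (0.41) and Fam198b (0.35), for Ogn App (0.45), Serpinf1 (0.44) and Cd81 (0.41) and for Prelp Pmp22 (0.49), Htra3 (0.49) and Cygb (0.44). For Omd the highest values were lower, Tnk1 (0.34), Plscr3 (0.34) and Nfe2l1 (0.30), and Fmod and Podn were in fewer than 25% of cells and were not ranked. Some of these ties were highest in the Nov11 capture with its nearly empty cells: Dcn and Sept2 had r = 0.85 there and 0.12, 0.50 and 0.30 in Jul24, Jul29 and Nov4. Ogn and Cd81 had 0.70 in Nov11 and 0.002 in Jul24, and Prelp and Pmp22 had 0.86 in Nov11 and 0.17 in Jul29. Aspn and Fstl1 were more even, from 0.40 in Jul24 to 0.57 in Nov11.

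**Figure D5:**
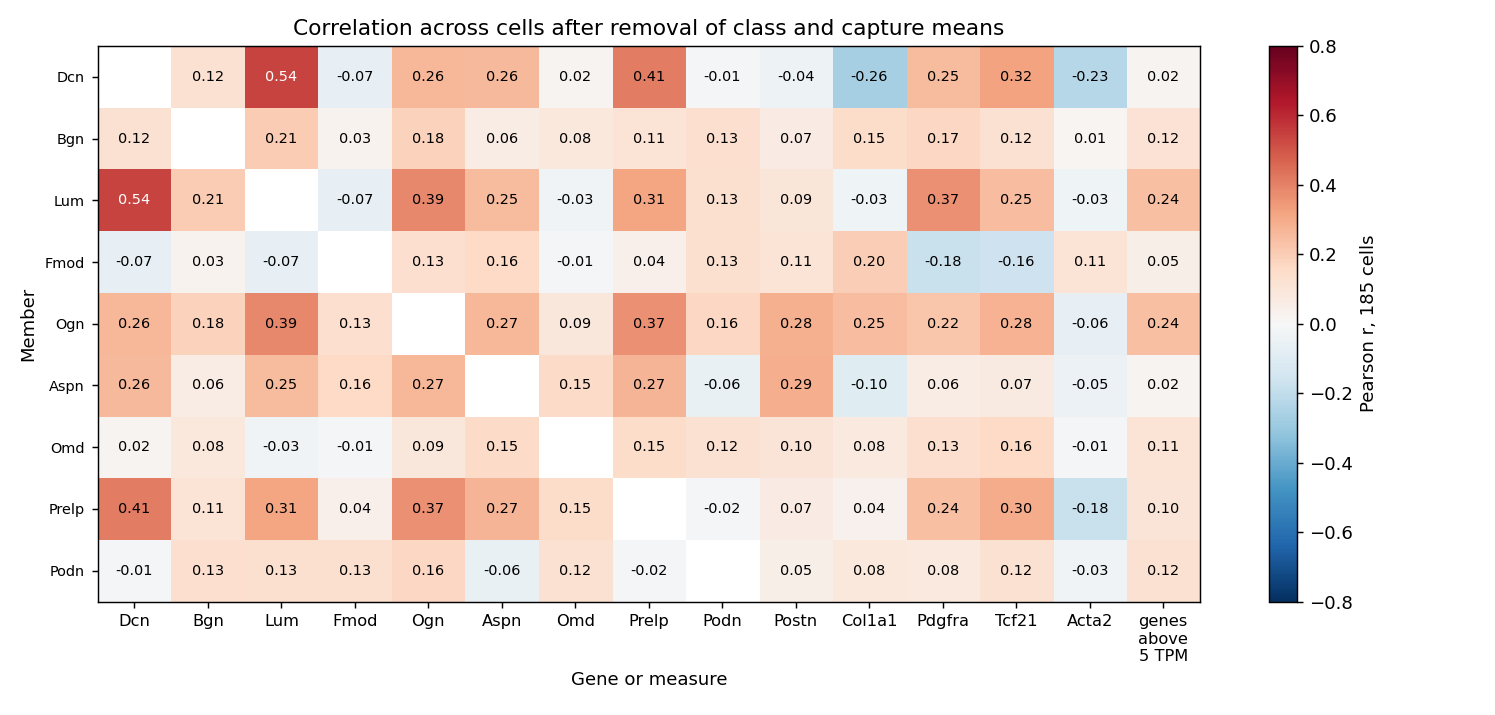
Pearson r across 185 cells between the members, and of each member with Postn, Col1a1, Pdgfra, Tcf21, Acta2 and the number of genes above 5 TPM, after class and capture means were taken off. The Dcn and Lum square is the darkest, and the Fmod, Omd and Podn squares are pale.

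The genes that build, cut and surround these proteoglycans give the setting in which the members moved, and they are counted here among tested genes. In Postn-traced minus Postn-negative cells, 2 of 6 linker and precursor enzymes were more than 1 log2 unit higher, beside 31.9% of all genes, and 1 lower (median 0.07, highest Slc35b2 3.15, lowest Papss1 −1.42). Of the enzymes that make the chondroitin and dermatan sulfate chains of Dcn and Bgn, 5 of 10 were higher and 0 lower (median 1.24, highest Chsy1 3.05, lowest of the listed genes Chst7 −1.15, which was not tested). Of the keratan sulfate enzymes that serve Lum and Fmod, 1 of 3 was higher and 0 lower (median 0.93, B4galt1 1.49, lowest B3gnt2 −0.36). Beside the 0.58 of all genes the median of the linker list was lower and those of the other 2 lists were higher, on few genes each. Over all listed genes in the table, tested or not, the medians were 0.33, 0.49 and 0.15. The 0.58 is over tested genes alone, so these 3 medians have no like value beside them here. The fibrillar collagens that the members bind were higher in 6 of 6 cases, with a median of 3.66, from Col11a1 (2.65) to Col1a1 (3.90). Thus the collagens differed far more than Bgn (1.51) between these classes, and Dcn (−0.86) and Prelp (−3.08) went the other way. Of the proteases known to cleave members, 2 of 7 were higher, led by Mmp14 (3.44), and 1 was lower, Adamts5 (−4.39).

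The ligands and receptors that bind Dcn, Bgn, Lum or Aspn were more than 1 log2 unit higher in 5 of 8 cases and lower in 0, beside 31.9% and 4.42% of all genes (median 1.71, and 0.35 over all 12 listed), from Tgfb3 (4.64) to Tlr4 (−0.93). Other proteoglycans were higher in 5 of 13 cases and lower in 0 (median 0.69, highest Gpc4 2.53, lowest Tgfbr3 −0.94). Of the related leucine-rich genes, 1 of 2 was higher, Ecm2 (1.64), the chromosome 13 neighbour of Aspn, and 0 were lower. In activated minus resident Tcf21-traced cells Ecm2 was −2.14 while Aspn was 4.99, so the 2 neighbours parted there. In the same comparison, where 33.4% of all genes were higher, 6 of 6 fibrillar collagens were higher (median 1.89, Col11a1 1.17 to Col5a1 2.84), and 2 of 7 proteases, led by Mmp14 (4.68). Beside a Dcn difference of −1.15, the chondroitin and dermatan sulfate enzymes were higher in 6 of 10 cases (median 1.05) with Dse (2.94) at the top. Over all 15 of these enzymes in the table, tested or not, the median was 0.57. In activated minus resident Postn-negative cells, where Dcn differed by 0.09, 0 of 6 fibrillar collagens were higher and 1 was lower, beside 19.9% and 9.09% of all genes (median −0.43).

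Markers of other cell types were looked at beside the members. Of the listed markers 4 of 6 endothelial, 5 of 6 myeloid and 5 of 6 cardiomyocyte genes were found, against 6 of 6 for fibroblasts. A count of 3 was thus harder to reach for these lists. The Endothelial list reached 3 positive markers in 0 of 185 cells and the Myeloid list in 1, a resident Postn-negative cell, in whose class the myeloid sum averaged 766 TPM. The comparisons with that class were not repeated without this cell. In the class 11 of 12 cells held 3 fibroblast markers, and 1 cell had 2 members above 5 TPM and a summed share of 0.174%. Whether that cell is the one with myeloid markers was not looked at. Of the endothelial markers Tek was above 5 TPM in 47 of 185 cells, Pecam1 in 5 and Kdr and Emcn in 1 each. The Pericyte list reached it in 5 cells, the Cardiomyocyte, Epicardial, Schwann and tendon or cartilage lists in 1 cell each, and the smooth muscle list in 22. The summed TPM of the 6 smooth muscle markers averaged 106 (median 4.34) in Postn-negative, 753 (median 259) in Postn-traced, 465 (median 129) in activated Tcf21-traced, 930 (median 266) in untraced Postn-positive, 216 (median 38.5) in scar and 103 (median 3.26) in resident Tcf21-traced cells, with Smtn the most abundant in Postn-negative and resident Tcf21-traced cells and Tagln in the others. In Nov4 alone the untraced Postn-positive cells averaged 1205 (median 288). The medians lay well below the averages. Myh11 and Cnn1 were above 5 TPM in 2 and 3 of 185 cells. The part of these genes in the differences of the members was not tested. Podn, known from smooth muscle, was above 5 TPM in 4 of 27 Postn-traced and 5 of 17 resident Tcf21-traced cells. A tie of Podn to the smooth muscle sum was not tested.

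The labels do not name the animals, so the SD between cells says nothing of the spread between mice. Values are mRNA levels, and the amount of proteoglycan in the matrix was not measured in these cells.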

How the data were processed

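The deposited values are log2 (TPM+1), which the authors made by adding 1 to TPM and taking log2. The submitters' processing notes name Bowtie 1.0.0, eXpress 1.5.1 and the mm10 build. The 9 members and the gene lists were chosen with earlier results of these data known. Cells took their class and capture from the labels, and 3 table columns without a sample were not used. A class is given by the mean over its cells. A gene was tested if it was above 5 TPM in at least 10% of the 185 cells, which 7843 genes were, and counted when class means differed by more than 1 log2 unit, and all 9 members were counted although Fmod missed this filter. Named genes are the 9 members, the highest and the lowest of each fixed list, up to 3 more of each list, and the 3 genes nearest to each member by r among genes in at least 25% of cells, those of Bgn not being reported here. Intervals are exact 95% Clopper-Pearson intervals. Motifs were read in up to 250 bases before the first start the promoter set lists for a gene, without exon bases for the members. The alternatives were the mean of linear TPM, medians over cells, pseudocounts of 0.1 and 5, centring each cell on its median gene above 5 TPM, rescaling to the total left without the 100 most abundant genes, dropping cells under 50% of the median gene number of the capture, cells of 2000 to 4000 genes, leaving out Postn-traced cells not used in a figure, no filter, minima of 1 TPM and 0, all cells for Dcn minus Bgn, and Spearman and partial correlation. Tools were SciPy 1.17.1, pandas 2.3.3, NumPy 2.4.6 and Matplotlib 3.10.9 in Python 3.11.15.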

Additional observations from a re-analysis of the deposited data

How the results depend on the processing

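Counts of members past 1 log2 unit rest on 9 genes, so 1 gene near the limit moves a count. In Postn-traced minus Postn-negative cells, members lower went from 2 to 1 with medians over cells, a pseudocount of 5 or centring. In Tcf21-traced minus untraced Postn-positive cells, members higher went from 1 to 0 with a pseudocount of 5 or centring and to 2 in cells of 2000 to 4000 genes. In activated minus resident Tcf21-traced cells, members higher went from 1 to 2 with the linear mean or centring, and members lower from 4 to 1 with centring. In Postn-traced minus resident Tcf21-traced cells, members higher went from 2 to 1 with medians, and members lower from 4 to 2 with the linear mean, medians or centring. In activated minus resident Postn-negative cells, members higher went from 2 to 1 with the linear mean or in cells of 2000 to 4000 genes, and members lower from 0 to 2 and to 1 in the same order. In activated Tcf21-traced minus Postn-traced cells, members lower went from 2 to 1 with medians. In resident Tcf21-traced minus Postn-negative cells, members lower went from 2 to 1 with the linear mean, and members higher from 1 to 3 with a pseudocount of 0.1 and to 2 with medians, rescaling or cells of 2000 to 4000 genes. At 1 TPM and at any value over 0, the share of all cells was 16.2% and 16.2% for Fmod, 94.6% and 94.6% for Aspn, 43.2% and 97.3% for Omd and 89.2% and 90.8% for Prelp, and for Podn it was 25.4% at any value over 0. The cause was not tested.

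Of 531 member differences under the alternatives, 10 moved by more than the SD between cells (5 up, 5 down), and of 243 correlations 11 moved (3 up, 8 down). Of 162 shares by class 32 moved, all up, as lower minima can only raise a share. Gene counts over the whole table moved in 24 of 66 cases for higher (14 up, 10 down) and 30 of 66 for lower (18 up, 12 down). Within 1 SD stayed 59 of 59 member medians and 66 of 66 medians over all genes, which does not show that these medians were stable. Under centring the median of all genes moved, as given above, by nearly its own size or more in some comparisons. Lum, which held the member median in Postn-traced minus Postn-negative cells, changed sign under centring. Also within 1 SD were 24 of 24 means of Dcn minus Bgn and 16 of 16 summed shares. The same held for 18 of 18 class means of members without cells of few genes, an alternative chosen after seeing the data. No difference larger than 1 log2 unit changed sign. Comparison of protein sequences was not run. Each class counts as 1 sample, class and capture cannot be told apart in 4 of 7 comparisons, and the comparisons share classes.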
